A study of Mus musculus with 8 samples.

Results

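Interferon-stimulated genes are described here in the aorta of newborn mice with and without fibulin-4, a secreted protein on which the building of elastic fibres depends. The list named 37 genes, and a gene entered if the microarray table held a row with that gene symbol alone; where a gene had several such rows, the row with the highest mean was used. Of the 37 genes, 33 had such a row, among 22180 genes measured, and Oas1a, Gbp2, Ifi44 and Dtx3l were not analysed here. Mice of strain C57BL/6 were taken on postnatal day 0. The 4 groups were wild-type ascending aorta, knockout ascending aorta, wild-type descending aorta and knockout descending aorta, the ascending piece ending at the ductus arteriosus and the descending piece at the diaphragm. The knockout pups lacked the fibulin-4 gene in the whole animal, per the labels, and no group received a treatment. Each array carried RNA of whole dissected tissue pooled from 8 pups, and each group had 2 arrays that the labels call biological replicates, which gave 8 arrays in all. No value of the fibulin-4 gene is given, since it was not analysed here, and the genotypes therefore rest on the labels alone.

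Type I interferons are secreted when cells sense foreign or misplaced nucleic acid. Type I interferon binds a receptor whose kinases, Jak1 and Tyk2, phosphorylate transcription factors such as Stat2, which joins Irf9 in a complex that binds a DNA element called ISRE, the interferon-stimulated response element, in front of its target genes. Interferon gamma acts through a different element, GAS. The products of the target genes sense viral RNA, block its translation or degrade it, tag proteins with the ubiquitin-like protein Isg15, and prepare peptides for display to T cells.

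A DNA feature that the choice of genes did not use is the ISRE in front of them. It was searched as GAAANNGAAA, where N is any base, on both strands of windows from 250 bases before to 50 bases after a gene's start, taken from RefSeq on build GRCm38.p6. Of the 33 measured genes, 23 had a window in that table, and a match was found in 10 of them, or 43.5%. Among all 27025 genes with a window, 3.99% held a match. The genes with a match were Bst2, Ddx58, Gbp3, Ifih1, Ifit1, Ifit3, Isg15, Oas3, Rsad2 and Stat2; in Ddx58 and Ifih1 it began after the gene's start. The GAS core, searched as TTCNNNGAA on both strands, was found in 5 of the 23 genes (21.7%) and in 9.55% of all genes with a window. These are matches of letters, not measured binding sites. Only exact matches inside the window were counted, so an element with other letters or farther away would be missed.

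The 250 bases before the start of 6 genes are shown, read 5′ to 3′ on the gene's strand with every ISRE match in capitals. Isg15, Ifit1 and Ifit3 are shown as strongly inducible targets of interferon, Stat2 as a signalling member with a match, and Irf7 and Trim25 because they had the smallest p-values in the averaged comparison of knockout with wild-type and held no match in their windows. The windows lie at chr4:156200819-156201068 on the minus strand for Isg15, chr19:34640639-34640888 on the plus strand for Ifit1, chr19:34583279-34583528 on the plus strand for Ifit3, chr10:128270248-128270497 on the plus strand for Stat2, chr7:141266425-141266674 on the minus strand for Irf7 and chr11:88999153-88999402 on the plus strand for Trim25.
Isg15: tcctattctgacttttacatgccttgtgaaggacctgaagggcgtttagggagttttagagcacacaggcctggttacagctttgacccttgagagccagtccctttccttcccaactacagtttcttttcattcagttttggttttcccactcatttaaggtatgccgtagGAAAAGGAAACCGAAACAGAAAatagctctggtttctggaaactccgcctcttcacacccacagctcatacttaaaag
Ifit1: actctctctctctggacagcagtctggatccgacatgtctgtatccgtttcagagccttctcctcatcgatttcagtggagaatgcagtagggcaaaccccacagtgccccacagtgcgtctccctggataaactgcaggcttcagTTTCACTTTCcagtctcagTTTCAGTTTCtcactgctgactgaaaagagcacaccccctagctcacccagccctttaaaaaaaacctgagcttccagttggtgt
Ifit3: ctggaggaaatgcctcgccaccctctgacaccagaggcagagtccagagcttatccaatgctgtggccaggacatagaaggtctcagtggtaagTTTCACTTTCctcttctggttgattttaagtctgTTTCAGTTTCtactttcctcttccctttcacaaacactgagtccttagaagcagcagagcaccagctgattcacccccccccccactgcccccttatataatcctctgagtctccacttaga
Stat2: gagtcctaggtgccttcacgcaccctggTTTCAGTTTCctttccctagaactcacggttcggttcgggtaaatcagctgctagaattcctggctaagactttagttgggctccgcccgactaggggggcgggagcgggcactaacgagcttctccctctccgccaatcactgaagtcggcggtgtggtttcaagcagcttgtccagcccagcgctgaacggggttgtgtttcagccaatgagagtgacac
Irf7: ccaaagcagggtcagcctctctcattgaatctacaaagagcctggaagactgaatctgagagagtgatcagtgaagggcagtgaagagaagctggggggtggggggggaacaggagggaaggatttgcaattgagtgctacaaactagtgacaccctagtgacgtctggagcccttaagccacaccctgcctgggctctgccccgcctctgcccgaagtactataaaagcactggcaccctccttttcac
Trim25: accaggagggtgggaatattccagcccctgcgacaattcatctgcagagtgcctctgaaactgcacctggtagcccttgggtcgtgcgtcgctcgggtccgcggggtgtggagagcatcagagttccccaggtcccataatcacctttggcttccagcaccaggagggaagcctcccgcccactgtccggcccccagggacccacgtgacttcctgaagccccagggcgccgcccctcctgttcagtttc
Isg15 held 3 overlapping matches in a single stretch, Ifit1 and Ifit3 held 2 separate ones each, and Stat2 held 1. The median log2 change of the averaged knockout effect was 0.21 in the 10 genes with a match and 0.30 in the 13 without. These medians rest on all 8 arrays, including the wild-type replicate 2 arrays described next. The difference between the sets was not tested.

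Both wild-type replicate 2 arrays had a narrower distribution of values than the other 6. The interquartile range over all genes was 1.80 in wild-type ascending and 1.74 in wild-type descending replicate 2, against 2.14 to 2.28 elsewhere. These arrays also held low values of the interferon-stimulated genes. Most counts and medians of the 33 genes, and the main counts of the other gene lists, are therefore given with and without them. In that fit on 6 arrays each wild-type group is 1 array, the spread comes from the knockout pairs alone (residual degrees of freedom 2 in place of 4) and the lone arrays are assumed to vary like those pairs. Wild-type ascending replicate 2 was the lowest of the 8 arrays for 19 of the 33 genes. It was also the highest for skeletal muscle, with a mean log2 level of 8.54 over 10 marker genes, against 5.56 to 7.26 on the other arrays. The median deviation of the 33 genes from their own means was -0.39 on that array and -0.13 on wild-type descending replicate 2. It was -0.08 on wild-type ascending replicate 1, 0.17 on wild-type descending replicate 1, 0.21 and 0.01 on the knockout ascending arrays, and 0.26 and 0.07 on the knockout descending arrays. Over all genes this median lay between -0.06 and 0.04 on every array. The wild-type arrays thus spanned a range from -0.39 to 0.17, and the 4 knockout arrays, from 0.01 to 0.26, overlapped its upper end.

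**Figure D1:**
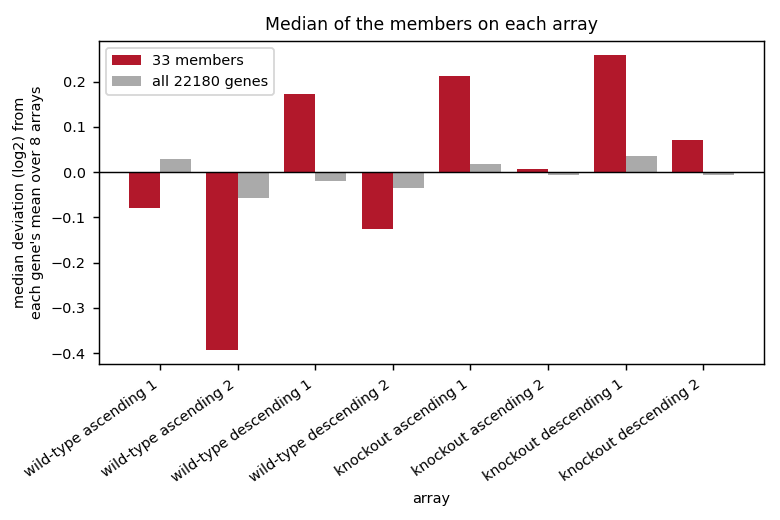
Bars give, for each array, the median deviation on the log2 scale of the 33 interferon-stimulated genes (red) and of all 22180 genes (grey) from each gene's mean over the 8 arrays. Wild-type ascending replicate 2 stands lowest at -0.39 and knockout descending replicate 1 highest at 0.26.

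The first question was whether interferon-stimulated genes differed between knockout and wild-type aorta with both segments averaged. None of the 33 genes passed an adjusted p under 0.05 in limma, where 0.0721% of all genes did, and the smallest adjusted p among them was 0.195, for Irf7. At an unadjusted p under 0.05, 6 of the 33 were higher in the knockout and 0 lower, against 7.57% and 3.83% of all genes. These 6 were Irf7, Trim25, Rtp4, Stat2, Oasl2 and Ifih1. The median log2 change was 0.26 over the 33 genes, 30 of which lay above 0, and 0.00 over all genes, 49.8% of which lay above 0. Without both wild-type replicate 2 arrays the median was 0.04, 22 genes lay above 0, and 5 were higher (Irf7, Trim25, Rtp4, Ifit2 and Irf1) and 1 lower (Isg15) at an unadjusted p under 0.05, against 6.76% and 6.69% of all genes. In that fit 0 of the 33 passed an adjusted p under 0.05 in limma, against 0.113% of all genes. With wild-type ascending replicate 1 left out 10 were higher and 1 lower at the unadjusted threshold, against 9.72% and 6.78% of all genes.

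Changes over all genes followed the level of the gene, with a median log2 change of -0.14 in the dimmest 20% of genes, 0.14 in the next to brightest 20% and 0.24 in the brightest 20%. The brightest group held 7 and the next to brightest 15 of the 33 genes. An interferon-stimulated gene lay above the median of all genes of its own level group in 27 of 33 cases, and in 19 of 33 without both wild-type replicate 2 arrays. The same counts were 29 and 24 in the ascending aorta and 21 and 14 in the descending aorta. The part of signal level in the shift of the 33 genes was not tested further.

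**Figure D2:**
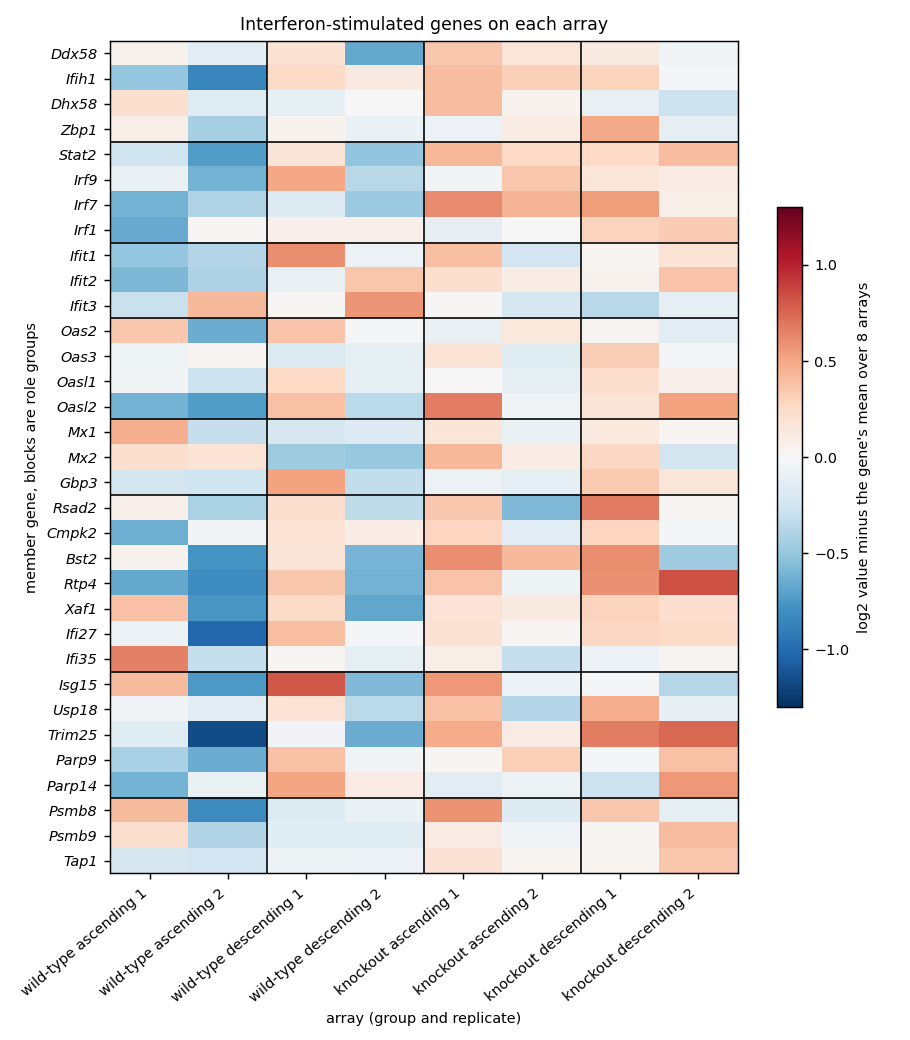
Colour gives the log2 value of each of the 33 genes (rows, in blocks by role) on each of the 8 arrays (columns), minus the gene's mean over the arrays. Blue cells gather on wild-type ascending replicate 2, where 19 genes had their lowest value.

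Among the transcription factors that carry the signal to the nucleus, Irf7, which amplifies type I interferon production, had log2 values of 5.24 and 5.47 in wild-type ascending, 6.47 and 6.30 in knockout ascending, 5.69 and 5.38 in wild-type descending and 6.40 and 5.93 in knockout descending aorta. All knockout arrays lay above all wild-type arrays of both segments. The averaged log2 change was 0.83 (SE 0.19, limma unadjusted p = 0.00167, adjusted p = 0.195), or 1.78-fold, and it stood at 0.81 without both wild-type replicate 2 arrays. Stat2, a transcription factor of type I and III interferon signalling, had values of 5.62 and 5.16 in wild-type ascending, 6.32 and 6.14 in knockout ascending, 6.05 and 5.37 in wild-type descending and 6.14 and 6.28 in knockout descending aorta. The knockout arrays lay above the wild-type arrays in each segment, with wild-type descending replicate 1, at 6.05, close to the lower knockout array of that segment, at 6.14. Its averaged change was 0.67 (SE 0.21, limma unadjusted p = 0.0110, adjusted p = 0.329), and 0.39 without both wild-type replicate 2 arrays. Irf9, the DNA-binding part of the complex it forms with Stat2, had an averaged change of 0.29 (SE 0.24), which was -0.06 without those arrays. Irf1, a factor induced by interferon gamma, had values of 4.43 and 5.11 in wild-type ascending, 4.98 and 5.10 in knockout ascending, 5.15 and 5.15 in wild-type descending and 5.38 and 5.42 in knockout descending aorta. Wild-type ascending replicate 1 was the low array there, and the averaged change was 0.26 (SE 0.20), or 0.43 without both wild-type replicate 2 arrays.

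Of the sensors of viral nucleic acid, Ifih1, the helicase MDA5 that detects long double-stranded RNA, had values of 4.63 and 4.28 in wild-type ascending, 5.53 and 5.43 in knockout ascending, 5.38 and 5.25 in wild-type descending and 5.42 and 5.10 in knockout descending aorta. The wild-type ascending arrays were the low pair, and the other 6 arrays lay between 5.10 and 5.53. The averaged change was 0.49 (SE 0.18, limma unadjusted p = 0.0243, adjusted p = 0.378), and 0.36 without both wild-type replicate 2 arrays. Ddx58, the sensor RIG-I for RNA ends, had an averaged change of 0.29 (SE 0.22), and Zbp1, which binds Z-form nucleic acid, 0.20 (SE 0.21). Without both wild-type replicate 2 arrays these stood at 0.03 and 0.04. Dhx58, the regulatory helicase LGP2, had values of 5.35 and 4.99 in wild-type ascending, 5.55 and 5.20 in knockout ascending, 5.03 and 5.14 in wild-type descending and 5.05 and 4.87 in knockout descending aorta. Its groups overlapped in both segments and its averaged change was 0.04 (SE 0.19), or -0.03 without those arrays.

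Among the proteins that conjugate Isg15 or ubiquitin, Trim25 had the largest averaged change of the 33 genes with 8 arrays, while Irf7 had the largest without both wild-type replicate 2 arrays. Trim25, a ubiquitin ligase that activates RIG-I, had values of 5.88 and 4.88 in wild-type ascending, 6.52 and 6.14 in knockout ascending, 6.00 and 5.40 in wild-type descending and 6.71 and 6.78 in knockout descending aorta. Knockout arrays lay above wild-type arrays in each segment, and wild-type ascending replicate 2 stood apart at the low end. The averaged change was 1.00 (SE 0.26, limma unadjusted p = 0.00331, adjusted p = 0.242), or 2-fold, and it was 0.60 without both wild-type replicate 2 arrays. Isg15 itself, the ubiquitin-like modifier and a widely used marker of interferon exposure, had values of 6.42 and 5.27 in wild-type ascending, 6.58 and 5.94 in knockout ascending, 6.82 and 5.44 in wild-type descending and 6.00 and 5.65 in knockout descending aorta. The highest and the lowest of these 8 values were both wild-type. Its averaged change of 0.05 (SE 0.35) turned to -0.58 without both wild-type replicate 2 arrays. Usp18, which removes Isg15 from proteins and dampens receptor signalling, had 0.18 (SE 0.24), or 0.02 without those arrays. The ADP-ribosyltransferase family members Parp9 and Parp14 had 0.36 (SE 0.20) and 0.04 (SE 0.24), or 0.19 and 0.07 without them.

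**Figure D3:**
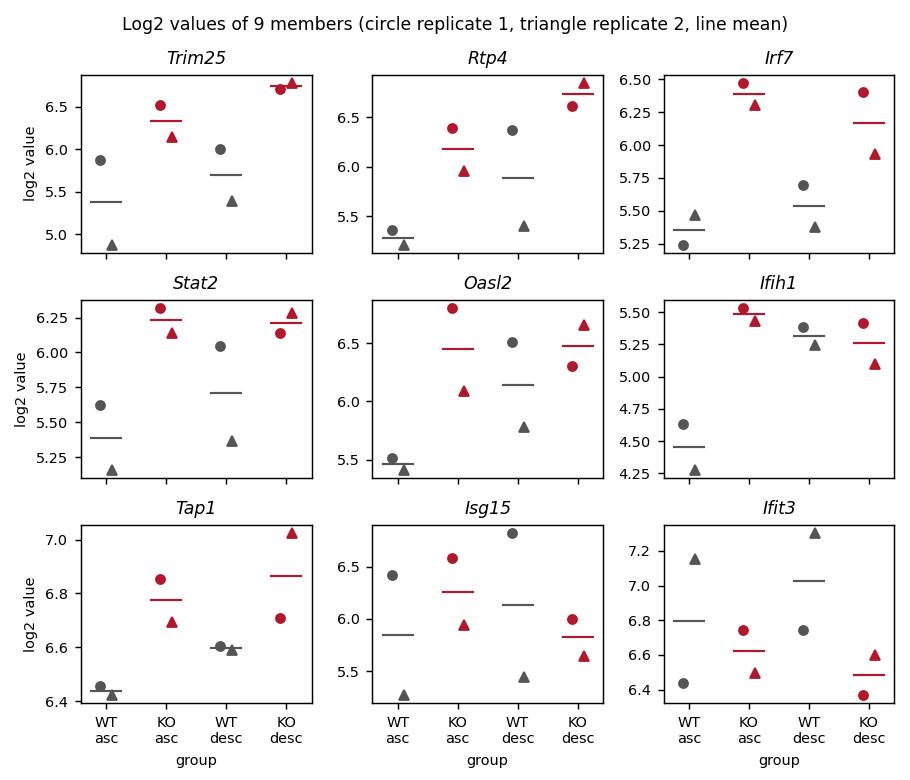
Points give log2 values of 9 of the genes in wild-type (WT, grey) and knockout (KO, red) ascending (asc) and descending (desc) aorta, with circles for replicate 1, triangles for replicate 2 and lines at the mean of 2 arrays. In Trim25, Rtp4, Irf7, Stat2 and Tap1 both knockout arrays lie above both wild-type arrays of the same segment, while the arrays of Isg15 overlap.

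Among effectors, Rtp4, an interferon-induced chaperone and antiviral protein, had values of 5.36 and 5.21 in wild-type ascending, 6.40 and 5.96 in knockout ascending, 6.37 and 5.40 in wild-type descending and 6.62 and 6.85 in knockout descending aorta. Knockout arrays lay above wild-type arrays in each segment, with wild-type descending replicate 1 the highest of the wild-type arrays. The averaged change was 0.87 (SE 0.24, limma unadjusted p = 0.00523, adjusted p = 0.281), or 1.82-fold, and 0.59 without both wild-type replicate 2 arrays. Bst2, the tetherin that holds budding virus at the membrane, had values of 8.75 and 7.93 in wild-type ascending, 9.30 and 9.13 in knockout ascending, 8.87 and 8.10 in wild-type descending and 9.31 and 8.24 in knockout descending aorta. In the descending segment its groups overlapped, and the averaged change was 0.58 (SE 0.30), which was 0.18 without those arrays. Rsad2, the antiviral enzyme viperin, and its genomic neighbour Cmpk2, a nucleotide kinase, had averaged changes of 0.23 (SE 0.27) and 0.20 (SE 0.21), or -0.03 and 0.33 without them. Xaf1, a pro-apoptotic protein, stood at 0.40 (SE 0.29), the mitochondrial protein gene Ifi27 at 0.36 (SE 0.23) and Ifi35 at -0.12 (SE 0.24). These 3 stood, without those arrays, at -0.11, 0.02 and -0.40.

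The IFIT genes, whose products bind viral RNA and block translation, had averaged changes on both sides of 0 with 8 arrays. Ifit1 had values of 5.47 and 5.60 in wild-type ascending, 6.38 and 5.73 in knockout ascending, 6.59 and 5.91 in wild-type descending and 6.01 and 6.16 in knockout descending aorta. Wild-type descending replicate 1 was its highest array, and the averaged change was 0.18 (SE 0.22). Ifit2 stood at 0.36 (SE 0.19) and Ifit3 at -0.36 (SE 0.23), the lowest of the 33 genes with 8 arrays. Without both wild-type replicate 2 arrays Ifit1, Ifit2 and Ifit3 stood at 0.04, 0.52 and -0.04, and Isg15, Ifi35 and Oas2 lay lowest. Among the OAS genes, a family whose founding enzymes switch on the ribonuclease RNase L, Oasl2, a relative with ubiquitin-like domains, had values of 5.52 and 5.41 in wild-type ascending, 6.80 and 6.09 in knockout ascending, 6.51 and 5.78 in wild-type descending and 6.30 and 6.66 in knockout descending aorta. Its knockout arrays lay clear of the wild-type arrays in the ascending segment and overlapped them in the descending one. The averaged change was 0.66 (SE 0.24, limma unadjusted p = 0.0214, adjusted p = 0.369), and 0.45 without both wild-type replicate 2 arrays. Oas2, Oas3 and Oasl1 had -0.03, 0.16 and 0.09, with standard errors of 0.24, 0.18 and 0.18, and -0.38, 0.20 and -0.07 without those arrays.

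The dynamin-like GTPase genes Mx1 and Mx2, which are defective in most laboratory strains, and the guanylate-binding protein gene Gbp3 stood between 0.11 and 0.28, and at -0.08, 0.26 and -0.07 without both wild-type replicate 2 arrays. Mx1 had the values 4.12 and 3.35 in wild-type ascending, 3.80 and 3.55 in knockout ascending, 3.44 and 3.48 in wild-type descending and 3.77 and 3.68 in knockout descending aorta. Its groups overlapped in the ascending segment, and in the descending one both knockout arrays were the higher pair. Mx2 had 4.92 and 4.87 in wild-type ascending, 5.13 and 4.79 in knockout ascending, 4.23 and 4.21 in wild-type descending and 4.97 and 4.46 in knockout descending aorta, and its descending wild-type arrays were the lowest pair. In antigen processing, Tap1, which pumps peptides into the endoplasmic reticulum, had values of 6.46 and 6.42 in wild-type ascending, 6.85 and 6.69 in knockout ascending, 6.60 and 6.59 in wild-type descending and 6.71 and 7.02 in knockout descending aorta. Its knockout arrays lay above the wild-type arrays in both segments, with an averaged change of 0.30 (SE 0.17, limma unadjusted p = 0.111, adjusted p = 0.529) that was 0.29 without both wild-type replicate 2 arrays. The immunoproteasome subunits Psmb8 and Psmb9 had 0.33 (SE 0.29) and 0.24 (SE 0.20), or 0.04 and 0.09 without them.

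Both knockout arrays lay above both wild-type arrays in both segments for 5 of the 33 genes (Stat2, Irf7, Rtp4, Trim25 and Tap1), and below them in both for 0. Over all genes these shares were 7.81% and 4.04%. The 3 genes whose averaged change over 8 arrays lay below 0 were Ifit3, Ifi35 and Oas2. The IFIT, OAS, Mx and guanylate-binding genes have close relatives in the genome, and whether probes read more than their own gene was not tested.

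**Figure D4:**
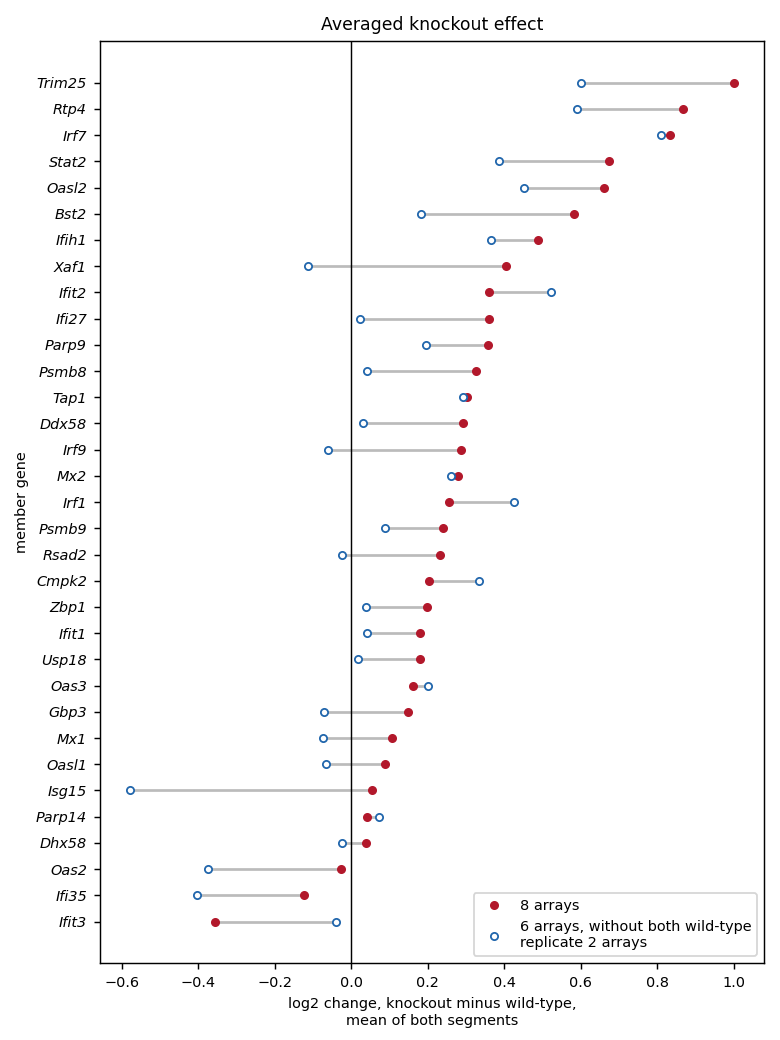
Each row is a gene; red points give the log2 change of knockout against wild-type averaged over both segments from 8 arrays, and open blue points the same from 6 arrays, without both wild-type replicate 2 arrays. The median moves from 0.26 to 0.04, while Irf7 moves from 0.83 to 0.81 and Isg15 moves from 0.05 to -0.58.

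The ascending aorta was asked about on its own next. There 0 of 33 genes passed an adjusted p under 0.05 in limma, where 0% of all genes did, and the smallest adjusted p was 0.334, for Ifih1. At an unadjusted p under 0.05, 8 genes were higher and 0 lower, against 5.31% and 3.60% of all genes. Ifih1 had a log2 change of 1.03 (SE 0.26) and Irf7 one of 1.03 (SE 0.27), each 2.04-fold. Oasl2 followed at 0.98 (SE 0.34), Trim25 at 0.95 (SE 0.36), Rtp4 at 0.89 (SE 0.34), Stat2 at 0.84 (SE 0.30), Parp9 at 0.70 (SE 0.28) and Ifit2 at 0.65 (SE 0.27). The knockout arrays lay above the wild-type arrays in 15 of 33 genes and below them in 0, against 21.5% and 18.3% of all genes. The median was 0.34, with 30 genes above 0, beside -0.01 over all genes. Without both wild-type replicate 2 arrays it was 0.18, with 23 genes above 0, 8 higher and 1 lower at an unadjusted p under 0.05, against 8.60% and 9.13% of all genes, and 0 past an adjusted p under 0.05 in limma, against 0.0496%. There, with 1 wild-type array in the segment, the 8 were Ifih1, Stat2, Irf7, Irf1, Ifit2, Oasl2, Cmpk2 and Rtp4, and Ifi35 was lower. Leaving out wild-type ascending replicate 2 alone gave 3 higher and 1 lower, against 6.05% of all genes higher. Without knockout ascending replicate 1 there were 3 higher, against 3.39%, and without wild-type ascending replicate 1 there were 11, against 6.66%. In this segment the skeletal muscle markers had a median change of -1.84, with 0 of 10 above 0 and 7 lower at an unadjusted p under 0.05, and a median of -0.90 without both wild-type replicate 2 arrays. The endothelial markers had a median of -0.71, with 7 of 12 lower and 1 higher, and the macrophage markers 0.84, with 9 of 15 higher. Without both wild-type replicate 2 arrays these medians were -0.76 and 0.58. The part of these tissues in the changes of the interferon-stimulated genes was not tested.

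In the descending aorta 0 of 33 genes passed an adjusted p under 0.05 in limma, where 0.00451% of all genes did, and the smallest adjusted p was 0.785, for Trim25. At an unadjusted p under 0.05, 3 genes were higher and 0 lower, against 3.63% and 2.32% of all genes. They were Trim25 at 1.05 (SE 0.36), Rtp4 at 0.85 (SE 0.34) and Irf7 at 0.63 (SE 0.27). Stat2 stood at 0.50 (SE 0.30) and Mx2 at 0.49 (SE 0.27), while Isg15 stood at -0.31 (SE 0.50) and Ifit3 at -0.54 (SE 0.32). Knockout arrays lay above wild-type arrays in 10 genes and below them in 1, Ifit3, against 21.6% and 15.8% of all genes. The median was 0.24, with 25 genes above 0, beside 0.03 over all genes. It was -0.03, with 16 genes above 0, without wild-type descending replicate 2, and 0.08 without knockout descending replicate 1; in each of these fits 0 genes were higher at an unadjusted p under 0.05 in limma, against 1.65% and 2.20% of all genes. Without wild-type descending replicate 1 there were 5, against 7.05%, and without knockout descending replicate 2 there was 1, against 2.04%. A second quantile normalization gave a median of 0.06. In the fit without both wild-type replicate 2 arrays, 1 gene, Trim25, was higher and 1, Isg15, lower at an unadjusted p under 0.05, against 3.13% and 3.22% of all genes, and 0 passed an adjusted p under 0.05 in limma, against 0.0316%. In this segment the median change was 0.55 for skeletal muscle, -0.03 for endothelial and 0.49 for macrophage markers. Without both wild-type replicate 2 arrays these were 0.41, -0.25 and 0.43.

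**Figure D5:**
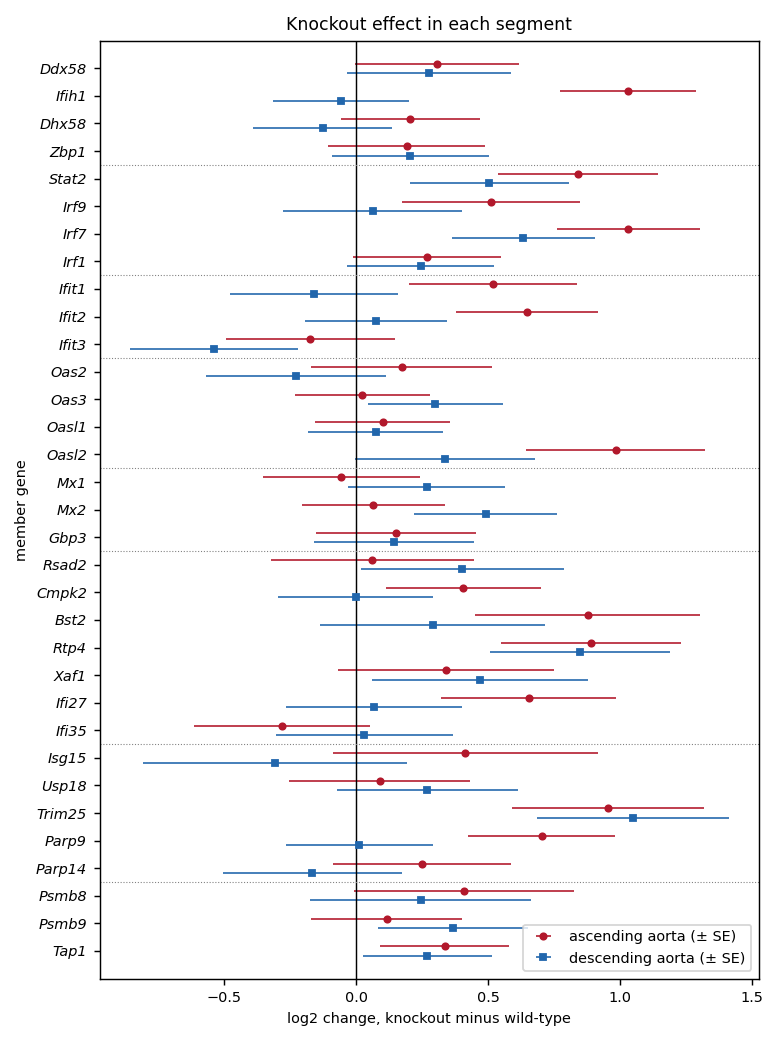
Points give the log2 change of knockout against wild-type for each of the 33 genes in ascending (red circles) and descending (blue squares) aorta, with bars of 1 standard error from limma and dotted lines between role groups. Ifih1 stands at 1.03 in the ascending and -0.06 in the descending aorta, and Trim25 at 0.95 and 1.05.

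Whether the knockout acted differently on the segments was tested directly. None of the 33 genes passed an adjusted p under 0.05 in limma, where 0% of all genes did. The median difference was 0.165 over the 33 genes and -0.03 over all genes. With single arrays left out, the median of the 33 genes ranged from 0.02 without wild-type descending replicate 1 to 0.34 without wild-type descending replicate 2. It was 0.36 without both wild-type replicate 2 arrays. Ifih1 had the smallest unadjusted p and the only one under 0.05, with its ascending effect larger by 1.09 (SE 0.36, limma unadjusted p = 0.0144, adjusted p = 1.00). At this threshold 1.62% of all genes were higher and 1.68% lower. Parp9 and Ifit1 followed, with differences of 0.69 (SE 0.39) and 0.68 (SE 0.45). Parp9, which works with the ligase Dtx3l at sites of DNA damage and in interferon responses, had values of 5.41 and 5.19 in wild-type ascending, 5.86 and 6.15 in knockout ascending, 6.22 and 5.79 in wild-type descending and 5.82 and 6.21 in knockout descending aorta. The wild-type ascending arrays were the low pair in Ifih1, Parp9 and Ifit1 alike. In the same comparison the median difference was -2.21 for skeletal muscle markers (0 of 10 above 0) and 0.42 for macrophage markers (12 of 15). Without both wild-type replicate 2 arrays these medians were -1.35 (1 of 10 above 0) and -0.02 (7 of 15). The part of these tissues was not tested.

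Between segments of wild-type mice, 0 of 33 genes passed an adjusted p under 0.05 in limma, where 0.00902% of all genes did. The median log2 difference, ascending minus descending, was -0.23, with 8 genes above 0, beside 0.01 over all genes. At an unadjusted p under 0.05, Ifih1 (-0.86 (SE 0.26)), Parp9 (-0.70 (SE 0.28)) and Ifit2 (-0.62 (SE 0.27)) were lower in the ascending segment, and Mx2 (0.67 (SE 0.27)) was higher, against 2.98% and 3.21% of all genes. The ascending arrays lay below the descending arrays in 11 genes and above them in 2, against 14.1% and 15.9% of all genes. The median moved with the array left out. It was -0.02 if replicate 1 of wild-type descending aorta was dropped, -0.42 if replicate 2 was dropped and -0.30 in the fit on 6 arrays. So did the count at the unadjusted threshold, with 8 lower and 0 higher without wild-type descending replicate 2, against 4.63% of all genes lower. In the fit on 6 arrays 9 were lower and 0 higher, against 6.91% lower, and with limma array weights 1 was lower and 0 higher, against 1.58% lower. Between segments of the knockout the median was -0.05, with 12 genes above 0, and 0 genes passed at an adjusted p (limma, 0% of all genes) or at an unadjusted p under 0.05, where 2.00% of all genes were higher and 2.04% lower. Rtp4 (-0.56 (SE 0.34)), Dhx58 (0.42 (SE 0.26)) and Irf1 (-0.36 (SE 0.28)) had the smallest unadjusted p there. The ascending knockout arrays lay below the descending ones in 7 genes and above them in 3, against 20.8% and 18.3% of all genes. The wild-type segments differed in tissue markers as well. Ascending minus descending, the median was 2.13 for skeletal muscle (10 of 10 above 0), -1.14 for adipocytes (0 of 9) and -0.31 for macrophages (2 of 15). These stood at 1.05, -1.28 and -0.13 without both wild-type replicate 2 arrays. The part of these tissues in the segment differences was not tested.

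The rest of the pathway was read from lists that share no gene with the 33. Of 86 listed genes, 79 were measured, with Irf5, Ifi47 and H2-D1 among those not analysed here. None passed an adjusted p under 0.05 in any knockout comparison in limma. In the averaged effect 18 were higher and 3 lower at an unadjusted p under 0.05, against 7.57% and 3.83% of all genes, and 15 and 2 without both wild-type replicate 2 arrays, against 6.76% and 6.69%. Of 12 interferon ligand genes, 0 were higher and 2 lower, and their median was -0.31, or -0.13 without both wild-type replicate 2 arrays. In the descending aorta the ligand median was -0.32, with 1 gene above 0. It was 0.16 there, with 7 above 0, without those arrays. Some ligand genes were dim, such as Ifna11 and Ifnb1 with mean log2 values of 2.01 and 3.01, while Ifna1 stood at 6.63. With 8 arrays, 4 of 9 receptor and kinase genes were higher, and 5 of 12 adapters and kinases of nucleic acid sensing. Other interferon-stimulated genes gave 7 higher and 1 lower of 29. Genes of class I presentation gave 2 higher of 11, and the brakes on signalling 0 of 6. The median changes of these lists, in this order, were 0.41, 0.30, 0.25, 0.12 and 0.36. Without both wild-type replicate 2 arrays they were 0.27, 0.23, 0.19, -0.03 and 0.09. In the ascending aorta 16 pathway genes were higher and 0 lower at this threshold: 3 of 9 receptor and kinase genes, 4 of 12 sensing adapters, 5 of 29 other stimulated genes, 2 of 11 presentation genes and 2 of 6 brakes, against 5.31% and 3.60% of all genes. In the fit on 6 arrays 18 were higher and 4 lower, against 8.60% and 9.13%. The descending aorta had 3 higher, of which 2 were sensing adapters and 1 a presentation gene, and 1 lower, a ligand, against 3.63% and 2.32% of all genes. Without those arrays it had 2 higher and 2 lower, against 3.13% and 3.22%.

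The smallest unadjusted p among these pathway genes belonged to Irgm2, an immunity-related GTPase, with an averaged change of 1.07 (SE 0.21, limma unadjusted p = 0.000605, adjusted p = 0.132). Its wild-type ascending arrays stood at 4.11 and 4.15, and the other 6 arrays between 5.39 and 6.44. Lgals3bp, a secreted glycoprotein induced by interferon, followed with 1.09 (SE 0.23, limma unadjusted p = 0.000832, adjusted p = 0.154), and Sting1, the adapter that cyclic GMP-AMP activates, with 0.87 (SE 0.20, limma unadjusted p = 0.00185, adjusted p = 0.201). In the ascending aorta the receptor kinase gene Jak2 stood at 1.21 (SE 0.34), beside Irgm2 at 1.56 and Lgals3bp at 1.60. In the descending aorta the endosomal RNA sensor gene Tlr7 stood at 1.10 (SE 0.36), and the ligand gene Ifna6 at -1.24 (SE 0.34).

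Pooled tissue does not separate more RNA per cell from more cells of a type that express the genes. The tissue label was checked first: the smooth muscle genes Acta2, Tagln, Cnn1 and Myh11 had log2 values of at least 12.10, 10.87, 10.27 and 8.70 on every array. All 15 macrophage marker genes lay above 0 in the averaged knockout effect, with a median of 0.75, and 10 were higher at an unadjusted p under 0.05. Of all genes 49.8% lay above 0, and 79.4% of the brightest 20%, and 7.57% of all genes were higher. In the fit on 6 arrays 13 of the 15 lay above 0, with a median of 0.55, and 6 were higher, against 6.76% of all genes. The mean log2 level of these 15 markers was 6.94 and 6.38 in wild-type ascending, 7.67 and 7.43 in knockout ascending, 7.13 and 6.89 in wild-type descending and 7.73 and 7.31 in knockout descending aorta. The knockout arrays were above the wild-type arrays of the same segment, and wild-type ascending replicate 2 was the lowest, as it was for most of the interferon-stimulated genes. The part of macrophage RNA in the values of Irf7, Trim25 and the other genes was not tested. Of 12 endothelial markers 2 lay above 0, with a median of -0.33. The 7 measured markers of plasmacytoid dendritic cells, a main source of type I interferon, had a median of -0.10, and the 11 of lymphocytes 0.08. The medians were -0.84 for markers of adipocytes, -0.60 for skeletal muscle (-1.84 in the ascending and 0.55 in the descending aorta), 0.33 for cardiomyocytes, 0.17 for fibroblasts and 0.27 for smooth muscle. The part of these other tissues in the pools was not tested either.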

How the data were processed

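Per the labels' protocols, RNA of the 8 pools was amplified and labelled with biotin before it was hybridised. The deposited table gives log2 values, 1 for each probe set of an array. According to the submitters' processing notes they come from RMA in Affymetrix Expression Console. No version, genome build or probe set definition was given in the sources used here. RMA subtracts background, brings arrays to a like distribution and combines probes, and it compresses differences of dim genes. Of 41345 probe sets, 23521 had 1 symbol in the platform annotation and entered, 1814 had several and 16010 none. Taking each gene's row with the highest mean gave 22180 genes.

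In limma 3.58.1 (R 4.3.3) each of the 4 groups had its own mean and all 8 arrays shared the spread (residual degrees of freedom 4, prior 5.52). Benjamini-Hochberg adjustment ran over all 22180 genes. The median standard error, set by the small number of arrays, was 0.30 in a segment and 0.21 in the average, and p-values measure the spread between pools. No block was used for replicate numbers, which the labels do not describe as pairing. The averaged comparison thus counts ascending and descending arrays as separate pools, and whether both pieces came from the same pups was not tested. Over all genes, the difference of replicate 1 minus 2 had a Pearson correlation of 0.29 between the wild-type segments and -0.02 between the knockout segments. If pools were shared, the averaged standard error could be too small. The 33 genes and the other lists were chosen with earlier results of these data known. Every gene with a row is named. Its arrays are listed if knockout arrays lay on the same side in both segments, if its p was among the 3 smallest of a comparison, or if its mean was the highest or lowest; Isg15 was added as a known marker after its values were seen. Pathway genes are named by the 3 smallest p of each knockout effect. Promoter windows came from RefSeq (GRCm38.p6).

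Alternatives changed the scaling (median centring, quantile normalization again), the genes (dropping the dimmest 25%, averaging rows of a gene, all rows), the model (replicate block, compared groups alone, trend with robust prior, weighted arrays), the threshold (adjusted p under 0.1) or the arrays (each left out, and both wild-type replicate 2 arrays). The last was added for the pathway and marker lists after seeing the data. The fit was also run on simulated data with independent noise, of the same spread on every array for a given gene. Such data hold no narrow arrays and no shared pools, so the run does not bear on those features. Plots used matplotlib 3.10.9.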

Additional observations from a re-analysis of the deposited data

How the results depend on the processing

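None of the 33 genes passed an adjusted p under 0.05 in any of the 6 comparisons under any alternative, nor at an adjusted p under 0.1 with 8 arrays; the smallest adjusted p over all alternatives and comparisons was 0.0802. The replicate number as a block left all medians as they were and 0 genes called, with a smallest adjusted p in limma of 0.158 in the averaged effect. Without both wild-type replicate 2 arrays the median change was 0.0404 averaged over segments, -0.0298 in the descending aorta and 0.36 for the difference between segments (0.165 with 8 arrays). A second quantile normalization gave 0.0588 in the descending aorta. The cause was not tested. Leaving out single arrays gave medians of 0.17 to 0.34 for the averaged effect, 0.18 to 0.45 for the ascending, -0.0298 to 0.27 for the descending, 0.02 to 0.34 for the difference between segments, -0.42 to -0.0199 for the segment difference in wild-type and -0.18 to 0.03 in the knockout. The sign of the averaged change turned for Isg15 and Parp14 after quantile normalization, for Ifi35 with the mean of its rows, and for 8 genes without both wild-type replicate 2 arrays (Dhx58, Irf9, Oasl1, Mx1, Gbp3, Rsad2, Xaf1 and Isg15). Leaving out single arrays turned it in 0 to 4 genes a fit: Oas2 and Isg15 in 4 fits each, and Dhx58, Parp14, Usp18, Mx1, Oasl1, Gbp3 and Ifi35 in others. Within a segment, leaving out those arrays turned 9 genes in the ascending and 9 in the descending aorta, quantile normalization 2 and 5, and leaving out single arrays up to 9; no value that turned was called in any fit. The averaged change did not turn for Irf7, Trim25, Rtp4, Stat2, Oasl2 or Ifih1 in any of these fits. Mx1 fell below the filter on dim genes and has no value there.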
